A study of Mus musculus with 12 samples.

Results

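The nuclear-encoded genes of oxidative phosphorylation were followed through chemical long-term potentiation (cLTP, here LTP) in mouse hippocampal slices. Members were the protein-coding genes of the GENCODE M21 annotation whose symbol begins with Nduf, Uqcr, Cox4 to Cox8 or Atp5, or is Sdha, Sdhb, Sdhc or Sdhd. Of the 41091 gene IDs in each count table, 93 were members. The set holds 36 genes of complex I subunits, 8 complex I assembly factors, 4 complex II, 8 complex III, 20 complex IV and 16 complex V genes, and 1 gene with another role under the Atp5 prefix (Atp5s, a coupling factor). Ndufa4 and Ndufa4l2 carry a complex I name but were grouped with complex IV, where the Ndufa4 protein is now placed. After the filter on low counts 91 members were tested, since Cox8b had at most 7 counts in a library and Cox8c had 0 in all 12.

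RNA-seq was performed on acute hippocampal slices, with the dentate gyrus trimmed away, from wild type male C57BL/6 mice aged 2 to 3 months. LTP slices received 50 uM forskolin, an activator of adenylyl cyclase that raises cAMP, for 5 min and then forskolin with 30 mM KCl and 10 mM calcium up to 10 min in all. Control slices received 0.2% DMSO, the vehicle, for the same 10 min. Slices were frozen 1 hr or 3 hr afterwards, which gave 4 groups of 3 libraries, a control and an LTP group at each time, and within a time point the control and LTP libraries of a replicate number came from the same animal. Every group is thus slice tissue kept in a chamber, with the mixed cell types left after this trimming. The LTP samples sequenced were chosen for induction of Arc. The study set 1 hr control replicate 2 aside as a clustering outlier, so it is shown here but left out of the tests unless stated.

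Oxidative phosphorylation is the last stage of respiration, in which complexes I to IV of the inner mitochondrial membrane pass electrons from NADH and succinate to oxygen, complexes I, III and IV pump protons as they do so, and complex V, the ATP synthase, uses the proton gradient to make ATP. Complex II is encoded wholly in the nucleus, whereas the other complexes combine nuclear subunits with a few made in the mitochondrion. Synaptic transmission and the pumping of ions after it consume much of the ATP of the brain, and neurons rely on this pathway to meet that demand. The count tables held 0 genes of the mitochondrial chromosome, so the mitochondrial subunits were not analysed here.

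Library totals lay between 37118382 and 50815001 counts, and members took between 0.758% and 0.97% of them. A count of 3, the floor used here, equals 0.059 to 0.0808 CPM (counts scaled to the library total, with TMM factors over all 12 libraries). Members were well covered, with a median lowest library count of 1819, and 86 of the 93 had a mean of at least 1 CPM. At a count of 1819 the counting error alone is a coefficient of variation of 2.34%. The median coefficient of variation of the 86 members was 3.52% in 1 hr controls, 6.39% in 1 hr LTP, 4.74% in 3 hr controls and 9.43% in 3 hr LTP slices. In bulk tissue a lower level can come from fewer cells of a type or from less RNA per cell, and these cannot be told apart.

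Levels per kb of exon ranged widely among members. They divide by all annotated exonic bases of a gene, whereas the study describes using reads in coding regions for expression, and whether the counts at hand were limited to these is not given in the sources used here, so the order of genes on this scale is approximate. The highest was Cox8a, a small subunit of complex IV, with a mean level of 361 CPM per kb. It was followed by Atp5a1, the alpha subunit of the catalytic head of complex V, at 285 CPM per kb. In the other complexes the highest levels were 131 CPM per kb for Ndufb9 (complex I), 103 for Uqcr11 (complex III) and 85.9 for Sdha, the flavoprotein of complex II. Complex I assembly factors, which help to build the complex but are not part of it, had a median level of 8.79 CPM per kb against 42.2 for complex I subunits.

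Several complex IV subunits have tissue isoforms, which differed widely in level. The level of Cox4i1 was 183 CPM per kb and that of Cox4i2, known as the lung isoform, was 0.486. Likewise Cox6a1 stood at 203 CPM per kb and its heart and muscle form Cox6a2 at 1.82. The level of Cox6b1 was 236 CPM per kb, and that of Cox6b2, the testis form, was 0.424. Cox7a2 and Cox7a2l had levels of 99.5 and 79.6 CPM per kb and the muscle form Cox7a1 had 1.18. Ndufa4 was at 105 CPM per kb and Ndufa4l2, a hypoxia-induced form, at 0.327. In complex V, 3 genes encode the same c ring peptide, and all were detected, at 46.3 CPM per kb for Atp5g3, 16.9 for Atp5g1 and 10.9 for Atp5g2.

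The summed level of all members was 9396, 9685 and 9730 CPM in 1 hr control replicates 1, 2 and 3, and 8889, 8580 and 9450 CPM in the 1 hr LTP replicates. At 3 hr it was 9614, 9497 and 8957 CPM in controls and 8269, 9005 and 7747 CPM in LTP slices. The lowest sum was thus that of 3 hr LTP replicate 3, and control and LTP slices overlapped at both times. Group means were 9563 ± 236 CPM (SD, n = 2) and 8973 ± 441 CPM (SD, n = 3) for 1 hr control and LTP slices, and 9356 ± 350 CPM (SD, n = 3) and 8340 ± 632 CPM (SD, n = 3) at 3 hr. In the plot of summed levels by complex, 2 complexes had control and LTP libraries that did not overlap. The complex II sums at 3 hr reached from 508 to 540.1 CPM in LTP slices and from 585.8 to 619 CPM in controls. The complex III sums at 1 hr reached from 771.9 to 821.5 CPM in LTP slices and from 841.6 to 873.1 CPM in controls. Such separation was not particular to these complexes. Outside the members, sums for mitochondrial ribosomal proteins did not overlap at 1 hr (LTP 1782 to 1903, controls 1924 to 2024 CPM) or 3 hr (1584 to 1719, 1825 to 1906). Those of the tricarboxylic acid cycle did not either, at 1 hr (2921 to 3164, 3167 to 3243) or 3 hr (2657 to 2849, 2898 to 3064).

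**Figure D1:**
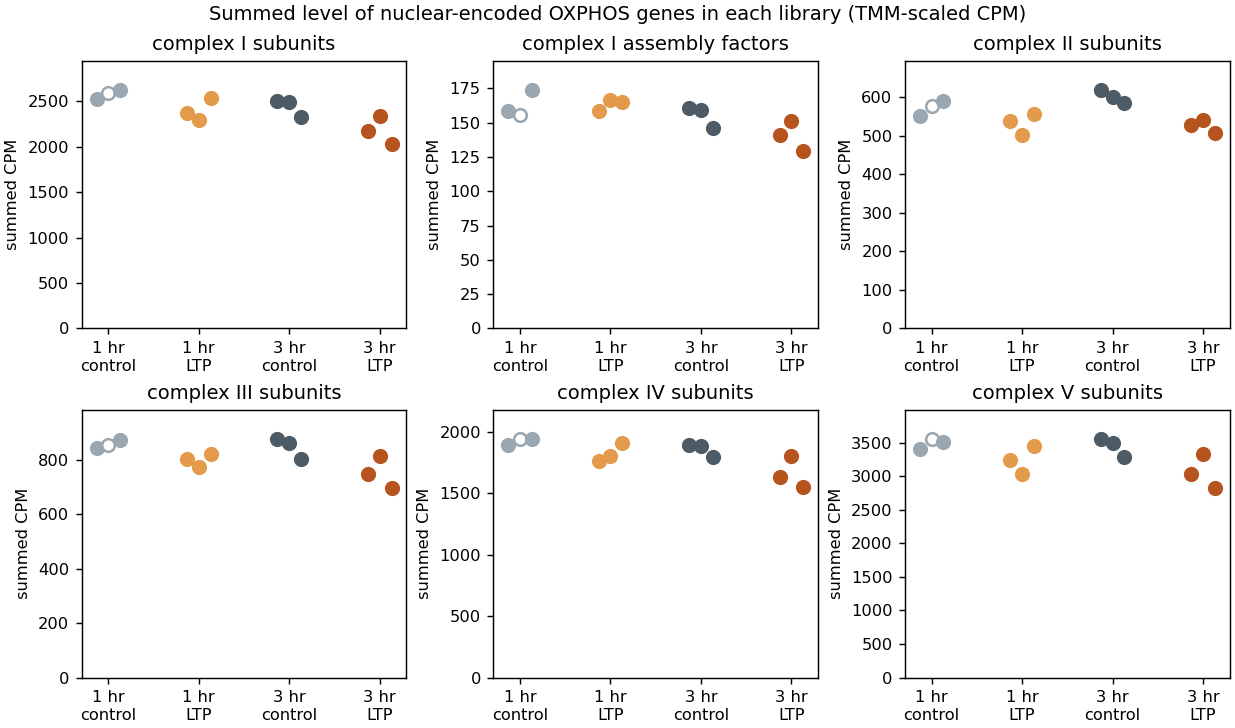
Summed CPM (TMM-scaled, vertical axis from 0) of the members of each complex in the 12 libraries, grouped along the horizontal axis by time and treatment. Each point is 1 library, replicates 1 to 3 from left to right, and the open point is the 1 hr control library left out of the tests; complex II sums at 3 hr and complex III sums at 1 hr do not overlap between control and LTP slices.

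The first comparison asked what LTP did to these genes at 1 hr. No single member passed the test, yet most estimates lay slightly below 0. Of 91 members, 0 were called higher and 0 lower by edgeR's quasi-likelihood test (adjusted p under 0.1 and fold change over 1.2), where 0.778% of all genes tested were called higher and 0.0113% lower. DESeq2 and limma-voom also called 0. Unadjusted p lay under 0.05 for 2 members, both lower, where 1.71% of all genes did so. These were Ndufs3, a core subunit of the peripheral arm of complex I, with a log2 fold change of -0.26 ± 0.08 (SE) and an edgeR adjusted p of 0.283, and Atp5h, a stalk subunit of complex V, with -0.16 ± 0.07 and an adjusted p of 0.735. The median log2 fold change was -0.08 over members and -0.001 over all genes tested, and 76 members had estimates below 0. Members share the same libraries and are not independent. Their median level per library, each gene set against its own mean, had an SD of 0.0575 (log2) within the 1 hr groups tested. In 29 members every LTP library was below both controls tested, which is 31.9% of those tested, against 12.4% of all genes. With the control set aside also counted this held for 13 members (14.3%) and 7.11% of all genes. Without that control the LTP libraries were above in 1 member, Ndufaf5, against 10.3% of all genes. The median was -0.05 if control replicate 3 was left out, with 58 members below 0, and also -0.05 if LTP replicate 2 was, with 68 below 0. Complex I assembly factors were the group with estimates on the other side, with 5 of 8 above 0 and a median of 0.03.

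At 3 hr after LTP nearly all estimates were on the lower side. Here 87 of 91 members had estimates below 0, with a median log2 fold change of -0.14 (quartiles -0.19 and -0.10) beside a median of -0.0025 over all genes. The members share the same libraries, so this is no count of independent genes. Their median level per library, each gene set against its own mean, had an SD of 0.0866 (log2) within the 3 hr groups. Each of the 36 complex I, 4 complex II and 8 complex III genes had an estimate below 0, as did all 8 assembly factors, 16 of the 18 complex IV genes tested and 15 of 16 complex V genes. The medians by complex differed little, at -0.14 for complex I, -0.19 for complex II, -0.15 for complex III, -0.15 for complex IV and -0.14 for complex V. The 4 members above 0 were Cox6b2, Cox7b2, Atp5l and Atp5s, each with an adjusted p of at least 0.618.

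Few of these single estimates passed the test. By edgeR's test 0 members were called higher and 1 was called lower, where 5.07% and 1.53% of all genes were called. Without the fold minimum, 8 members had an adjusted p under 0.1, all lower, against 2.14% of all genes on that side. An unadjusted p under 0.05 was found for 33 members, again all lower, against 8.25% of all genes. In 36 members (39.6%) all LTP libraries were below all controls, beside 14.7% of all genes, and in 0 members were they above, beside 12.4% of all genes. The 76 genes tested for proteins of the mitochondrial ribosome, which makes the subunits encoded in the mitochondrion, had a median of -0.15 beside these, with 71 below 0 and 5 called lower. In 39 of the 76 all LTP libraries were below all controls.

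**Figure D2:**
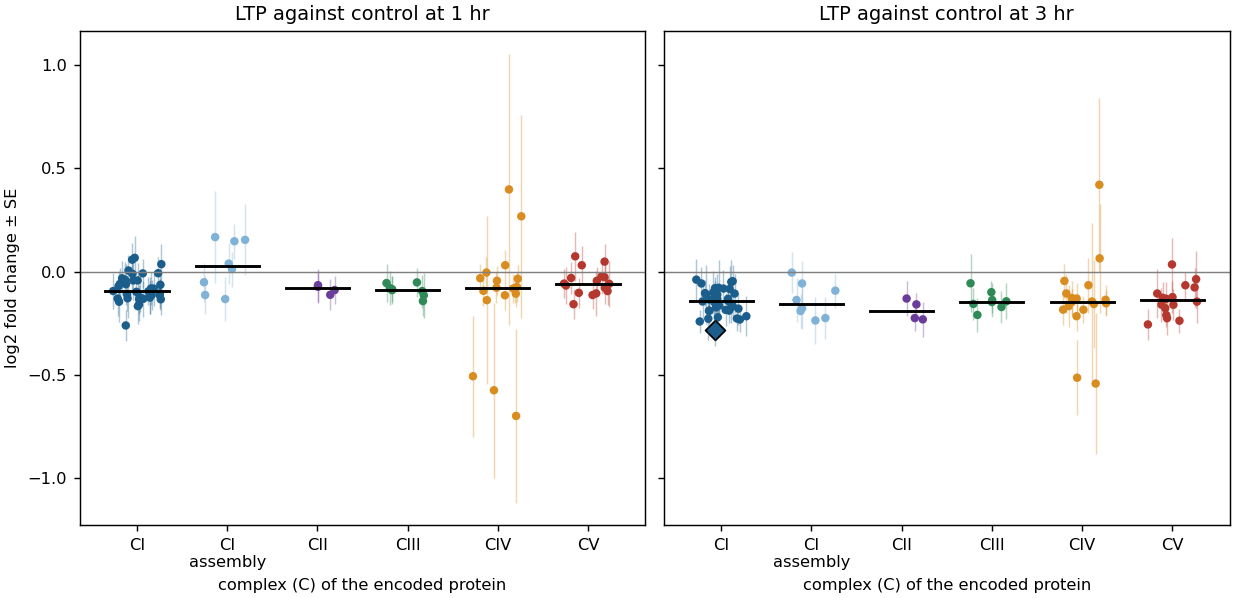
Log2 fold change of LTP against control slices (vertical axis, ± SE) for each tested member, by complex (horizontal axis), at 1 hr on the left and 3 hr on the right. Points are genes, horizontal bars are medians and the diamond is Ndufv3, the single gene called; at 3 hr the medians of the 6 groups lie between -0.19 and -0.14.

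The called gene was Ndufv3 (chr17:31520115-31531331, GRCm38, plus strand), a small subunit of the NADH-oxidizing module of complex I. Its level was 41.4, 42.8 and 42.8 CPM in the 3 hr controls and 35.3, 31.4 and 36 CPM in the 3 hr LTP slices. All LTP libraries were thus below all controls, and each animal showed the difference, with log2 ratios of -0.23, -0.44 and -0.25. The log2 fold change was -0.28 ± 0.08 with an edgeR adjusted p of 0.0793. At 1 hr the levels of the groups overlapped, at 53.8, 55.9 and 51.2 CPM in controls and 49.9, 49.5 and 55.6 CPM in LTP slices, and the log2 fold change was -0.01 ± 0.08. The 3 hr call rested on little margin: at an adjusted p under 0.05 it was not made, and it was lost in 5 of 17 other alternatives, each with 1 library left out, where the adjusted p reached 0.287 or, without 3 hr LTP replicate 2, the fold change dropped to -0.22 on the log2 scale.

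The other 7 members with an adjusted p under 0.1 at 3 hr missed the fold minimum by a small amount. Ndufb8, a membrane arm subunit of complex I, had 60.8, 59.3 and 59.1 CPM in controls and 50.1, 50.5 and 48.9 CPM in LTP slices. Those 2 groups did not overlap and had SDs of 0.924 and 0.866 CPM, and the log2 fold change was -0.24 ± 0.06 (edgeR adjusted p = 0.055). Atp5g3, of the c ring, had 126, 123 and 115 CPM in controls and 99, 103 and 102 CPM in LTP slices, a log2 fold change of -0.24 ± 0.06 (edgeR adjusted p = 0.0583).

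The rest of these 7 came from 3 complexes and also had LTP libraries below all controls. In complex I they were Ndufab1, the mitochondrial acyl carrier protein, and Ndufb11, with log2 fold changes of -0.23 each. Sdhb, the iron-sulfur subunit of complex II, had -0.22. In complex V they were Atp5j (coupling factor 6) with -0.21 and Atp5k with -0.26, the nearest to the minimum of 0.263. How many members were called at 3 hr therefore depended on small shifts. The count was 9 with offsets for GC content and exon length, 10 with these offsets and the animal as a block, and 1 with the block alone. Over all 17508 genes the lower calls went from 267 to 544, 642 and 426 in these fits. It was 7 without 3 hr LTP replicate 2, the library whose member sum lay closest to the controls, and 0 without 3 hr LTP replicate 1 or any 1 of the 3 hr controls. The lower calls over all genes moved in the same way, to 514 and 38 when LTP replicate 2 or 1 was left out and to 18 to 46 when a control was. With LTP replicate 3 left out they rose to 494, while the members' count stayed at 1. All member calls in these alternatives were lower.

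Animal by animal, the members' median log2 ratio of LTP to control was -0.23, -0.09 and -0.21 at 3 hr, with 89, 64 and 85 of 91 below 0. At 1 hr it was -0.07 and -0.05 in animals 1 and 3, with 69 and 66 below 0. Animal 2, whose control was set aside, gave -0.18, with 65 below 0. Over all genes tested the share below 0 lay between 50.8% and 54.1% in these 6 pairs, and the members' median was below 0 in each. Whether the 1 hr and 3 hr pairs came from different animals is not given in the sources used here.

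Cell type markers were compared in the same libraries. None of the lists for pyramidal neurons, interneurons, astrocytes, oligodendrocytes, oligodendrocyte precursors, microglia or endothelial and mural cells had a called gene in either LTP comparison. Over all genes 0.789% were called at 1 hr and 6.6% at 3 hr, so few calls could fall in lists of 3 to 8 genes. Calb2, 1 of 4 genes listed here for dentate granule cells, was lower at 3 hr, with a log2 fold change of -0.62 ± 0.12. The other genes of that list went both ways and were not called, with -0.36 for C1ql2, 0.10 for Prox1 and 0.21 for Dsp, so the list gives no direction for this cell type. Summed marker levels for pyramidal neurons were 6846 to 6886 CPM in 3 hr controls and 6231 to 8186 CPM in 3 hr LTP slices, and those for astrocytes 4845 to 5059 and 4420 to 5277 CPM. No gene of any list, that for dentate granule cells included, was at 0 counts in a library. The 6 microglia markers all had estimates below 0 at 1 hr (median -0.10) and at 3 hr (median -0.09), as most members did, and their summed level differed by -5.87% and -8.21%. At 1 hr the 6 endothelial and mural markers all had estimates below 0 (median -0.25) and the 6 oligodendrocyte markers all above 0 (median 0.22). By edgeR's test 4 and 3 of these had an unadjusted p under 0.05, beside 6.71% of all genes. The summed levels of these 2 lists differed by -16.2% and 16.4% at 1 hr, beside -6.17% for the members, and by 1.46% and 2.11% at 3 hr, beside -10.9%. The part of cell composition in the members' lower estimates was not tested.

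Whether the LTP effect differed between 3 hr and 1 hr was tested as the difference of the 2 effects in a model of the 4 groups. For 72 of 91 members the 3 hr effect was the lower, with a median difference of -0.05 on the log2 scale, but 0 members were called in either direction by edgeR's test, where 0.0269% of all genes were called higher and 0.0323% lower. DESeq2 and limma-voom called 0 as well. Unadjusted p was under 0.05 for 2 members, both lower, beside 2.38% of all genes. They were Ndufab1 with -0.23 ± 0.09 (edgeR adjusted p = 0.661) and Ndufv3 with -0.27 ± 0.11 (edgeR adjusted p = 0.695). A larger effect at 3 hr was therefore not shown for any member, and the median difference itself moved with the fit and with single libraries. With the animal as a block it was -0.10, with 79 of 91 below 0, and with GC and length offsets -0.03, with 57 below 0. Leaving out 3 hr LTP replicate 2 gave -0.13, and leaving out 1 hr LTP replicate 2 gave -0.09. Omission of control replicate 3 gave -0.11 when it was the 1 hr library and -0.10 when it was the 3 hr library. In the other direction, LTP replicate 3 left out gave -0.03 at 3 hr and -0.006 at 1 hr, the latter with 50 of 91 below 0.

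Time in the chamber was the larger axis of change. Between the 1 hr and 3 hr controls 17 members (18.7%) were higher and 21 (23.1%) lower by edgeR's test, where 16.1% and 16.8% of all genes were. Between the 1 hr and 3 hr LTP slices 14 (15.4%) were higher and 27 (29.7%) lower, beside 18.6% and 17.3% of all genes. Many genes of the whole transcriptome were thus called in both directions. The 1 hr and 3 hr counts come from separate tables, so time after treatment cannot be told apart from any difference in how the libraries of each time point were made.

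The members called in control slices and in LTP slices were largely the same genes. In both comparisons 20 members fell, which is 95.2% of those lower in controls and 74.1% of those lower in LTP slices. Likewise 12 members rose in both, 70.6% and 85.7% of the lists. Over all genes the corresponding shares were 69.9% and 67.7% for lower and 72.1% and 62.3% for higher. The 2 comparisons use different libraries, but control and LTP slices of a time point share their animals. Of the 47 members called in either comparison, 0 were called in opposite directions.

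**Figure D3:**
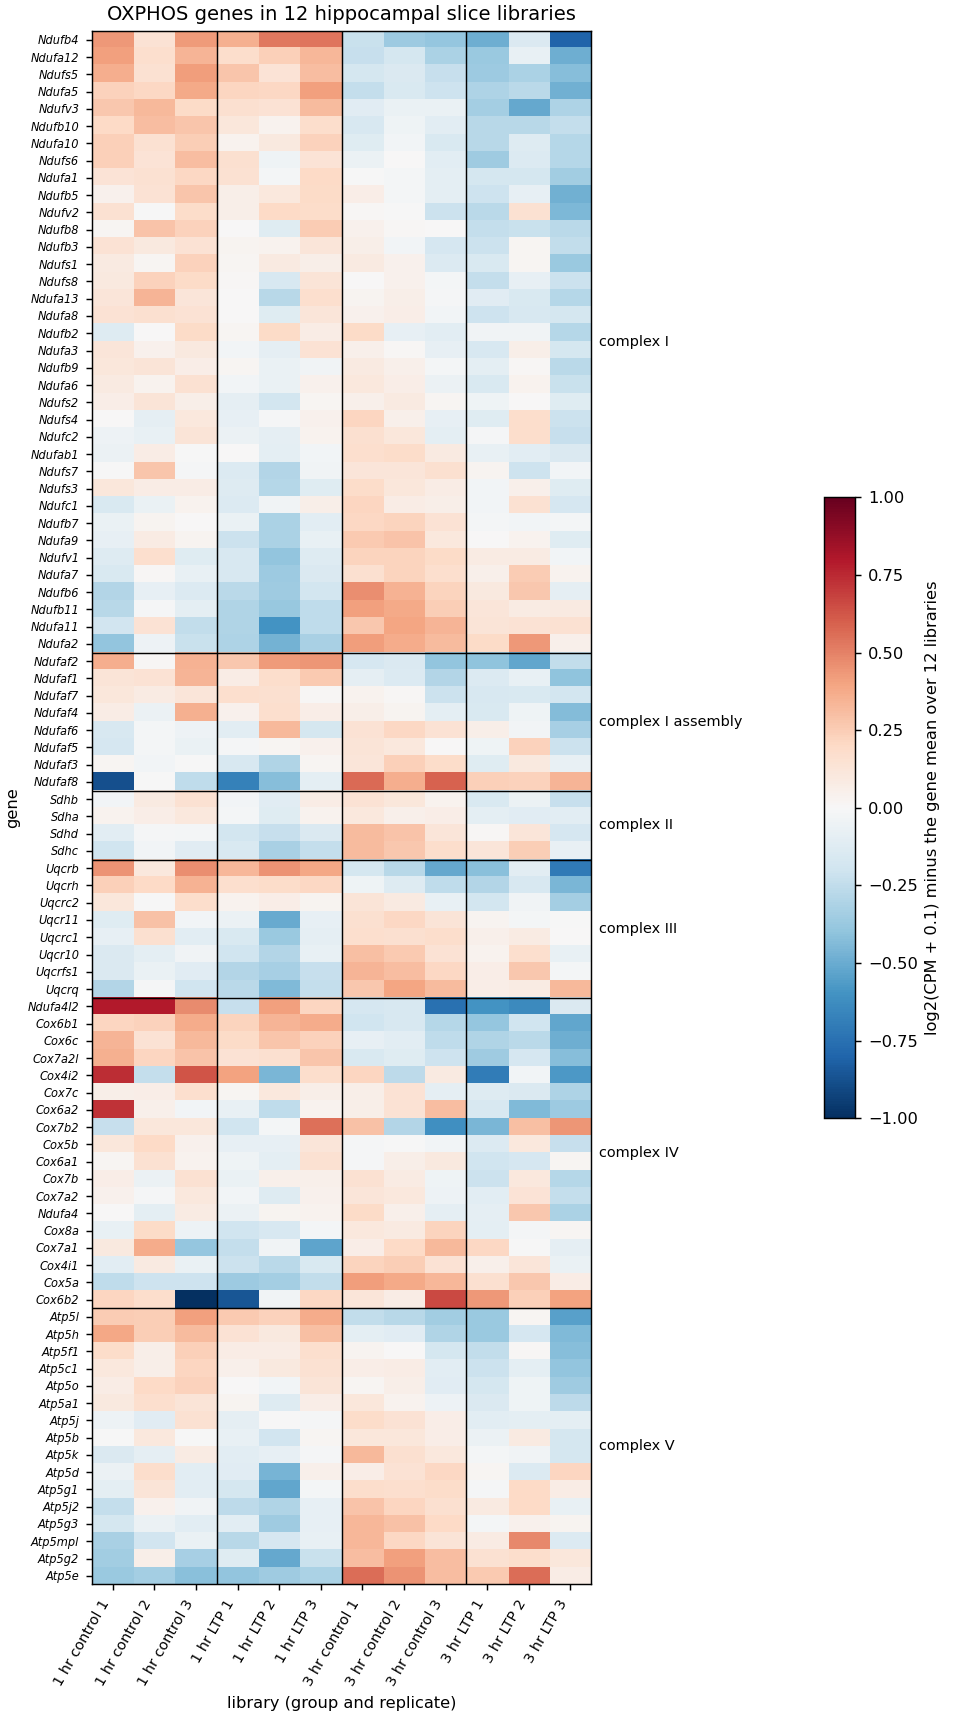
Heatmap of the tested members with a place in a complex or its assembly (rows, by complex and ordered by their change from 1 hr to 3 hr) in the 12 libraries (columns). Colour gives log2(CPM + 0.1) minus the gene's mean over all libraries, from -1 (blue) to 1 (red). Each complex other than complex II holds genes that fell, from red to blue, and others that rose, from blue to red, between 1 hr and 3 hr.

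Members of 1 complex moved in opposite directions. Of the 36 complex I subunits, 8 fell and 4 rose in both control and LTP slices. Over the 18584 genes tested, 2176 fell and 2154 rose in both, so movement in both directions was not particular to this complex. The largest fall was that of Ndufb4, a membrane arm subunit. Its level was 45.8, 37.5 and 45.5 CPM in 1 hr controls and 43.3, 48.8 and 49.1 CPM in 1 hr LTP slices, and 29.1, 26.3 and 25.9 CPM in 3 hr controls and 24.2, 30.6 and 19.4 CPM in 3 hr LTP slices. Every 3 hr library was below every 1 hr library. The log2 fold changes were -0.79 ± 0.13 in controls and -0.96 ± 0.12 in LTP slices (edgeR adjusted p = 0.000767 and 9.9e-05).

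Ndufa12, Ndufa5, Ndufs5, Ndufa10, Ndufb10, Ndufs6 and Ndufv3 completed the falling subunits of complex I. Ndufs5 had the smallest p in both comparisons, with -0.61 ± 0.07 and -0.64 ± 0.06. Against them rose Ndufa2, Ndufa11, Ndufb6 and Ndufb11. Ndufa2 went from 20.5, 26.1 and 23.1 CPM in 1 hr controls to 36.2, 34.9 and 33.6 CPM in 3 hr controls, a log2 fold change of 0.64 ± 0.11 (edgeR adjusted p = 0.000756). In LTP slices it went from 21.8, 19.5 and 21.6 to 30.8, 36.6 and 28 CPM, or 0.58 ± 0.09 (edgeR adjusted p = 0.000491). At both conditions the 3 hr libraries were above all 1 hr libraries.

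The assembly factors of complex I showed the same split. Ndufaf1, Ndufaf2 and Ndufaf4 fell, while Ndufaf8 rose, with the largest rise among members called in controls. The level of Ndufaf8 was 2.68, 5.01 and 4.2 CPM in 1 hr controls and 7.47, 6.5 and 7.62 CPM in 3 hr controls, a log2 fold change of 1.02 ± 0.19 (edgeR adjusted p = 0.00173). In LTP slices it was 3.1, 3.71 and 4.68 CPM at 1 hr and 5.94, 5.92 and 6.36 CPM at 3 hr, or 0.64 ± 0.17 (edgeR adjusted p = 0.00993). The counts behind it were low for a member, from 104 to 391 in a library. Ndufaf2 fell by 0.63 and 0.80 on the log2 scale, but 65.65% of its exonic length overlaps a non-coding gene on the other strand, and use of strand in the counting is not given in the sources used here.

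In complex II Sdhc, a membrane anchor, rose in both comparisons (0.37 and 0.31), and none of the 4 genes fell. In complex III Uqcrb, a ubiquinone-binding subunit, and Uqcrh, the hinge protein beside cytochrome c1, fell, and Uqcrfs1, the Rieske iron-sulfur protein, and Uqcrq rose. The level of Uqcrb was 115, 90.6 and 116 CPM in 1 hr controls and 74.6, 69.4 and 59.1 CPM in 3 hr controls. In LTP slices it was 106, 115 and 110 CPM at 1 hr and 62.8, 78.1 and 51.4 CPM at 3 hr. No 3 hr library reached the lowest 1 hr library, and the log2 fold change was -0.81 in each comparison, with SEs of 0.13 and 0.12 (edgeR adjusted p = 0.000538 and 0.000219).

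In complex IV Cox6b1, Cox6c and Cox7a2l fell in both comparisons and Cox5a rose. Cox6b1, at the face of the complex that meets cytochrome c, had 189, 191 and 211 CPM in 1 hr controls and 142, 146 and 134 CPM in 3 hr controls, a log2 fold change of -0.55 ± 0.09 (edgeR adjusted p = 0.000547). The LTP slices had 190, 207 and 211 CPM at 1 hr and 125, 142 and 114 CPM at 3 hr, or -0.70 ± 0.08 (edgeR adjusted p = 4.69e-05). The levels at 3 hr lay below all those at 1 hr.

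Cox5a, a matrix-side subunit of complex IV, moved the other way. It had 57.4, 59.2 and 59.4 CPM in 1 hr controls and 91.4, 88.9 and 86.3 CPM in 3 hr controls, a log2 fold change of 0.56 ± 0.07 (edgeR adjusted p = 0.000146). In LTP slices it had 53.2, 54 and 57.6 CPM at 1 hr and 76.4, 82.8 and 72 CPM at 3 hr, or 0.46 ± 0.06 (edgeR adjusted p = 0.000157). Of the isoform pairs, Cox4i1 had log2 fold changes of 0.25 and 0.22 and Cox6a1 of -0.02 and -0.15, and neither was called, Cox4i1 because it missed the fold minimum (edgeR adjusted p = 0.0122 and 0.0115). Among the rare isoforms Ndufa4l2, with 8 to 31 counts in a library, was lower in controls only by the test (-1.28 ± 0.39, edgeR adjusted p = 0.024), and its call was lost without 1 hr control replicate 1 (edgeR adjusted p = 0.162).

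In complex V Atp5f1, Atp5h and Atp5l fell, and Atp5e, Atp5g2 and Atp5mpl rose. Atp5e, the epsilon subunit of the central stalk, had 22.1, 22.6 and 21.4 CPM in 1 hr controls and 42.1, 39.1 and 35.4 CPM in 3 hr controls, a log2 fold change of 0.79 ± 0.12 (edgeR adjusted p = 0.000384). The LTP slices had 21.7, 22.3 and 23 CPM at 1 hr and 34.3, 42.3 and 30.1 CPM at 3 hr, or 0.65 ± 0.10 (edgeR adjusted p = 0.000457). All 3 hr libraries exceeded all 1 hr libraries. Atp5l, a membrane subunit, fell by 0.67 ± 0.12 and 0.60 ± 0.11.

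The c ring genes of complex V had different levels of support. Atp5g2 rose by 0.64 ± 0.10 in controls, from 14, 18.6 and 14.2 CPM to 22.2, 23.8 and 22.2 CPM, and by 0.40 ± 0.09 in LTP slices. With offsets for GC content and exon length these became 0.19 (edgeR adjusted p = 0.189) and 0.07 (edgeR adjusted p = 0.633), so its call was lost. Atp5g3 was called higher in controls (0.37 ± 0.08) and had 0.17 ± 0.07 in LTP slices, whereas Atp5g1 was called higher in LTP slices (0.29 ± 0.10) and had 0.24 ± 0.11 in controls. The call of Atp5g1 was lost without 1 hr LTP replicate 2 (0.19) or 3 hr LTP replicate 2 (0.23), which fell short of the fold minimum. The alpha subunit gene Atp5a1, the most highly expressed of complex V per kb, had -0.12 and -0.16 and was not called, though with the same offsets it was, at -0.27 in both.

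**Figure D4:**
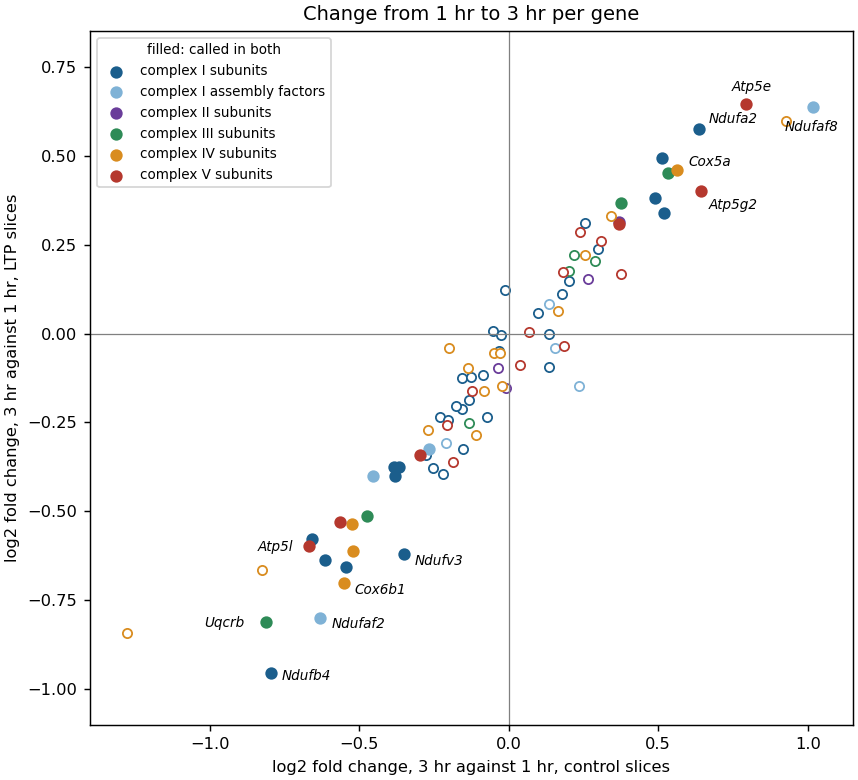
Log2 fold change from 1 hr to 3 hr of each tested member of complexes I to V and of complex I assembly in control slices (horizontal axis) and LTP slices (vertical axis). Each point is 1 gene, coloured by complex and filled where it was called in both comparisons; Uqcrb and Ndufb4 lie at the lower left and Ndufaf8 and Atp5e at the upper right.

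**Figure D5:**
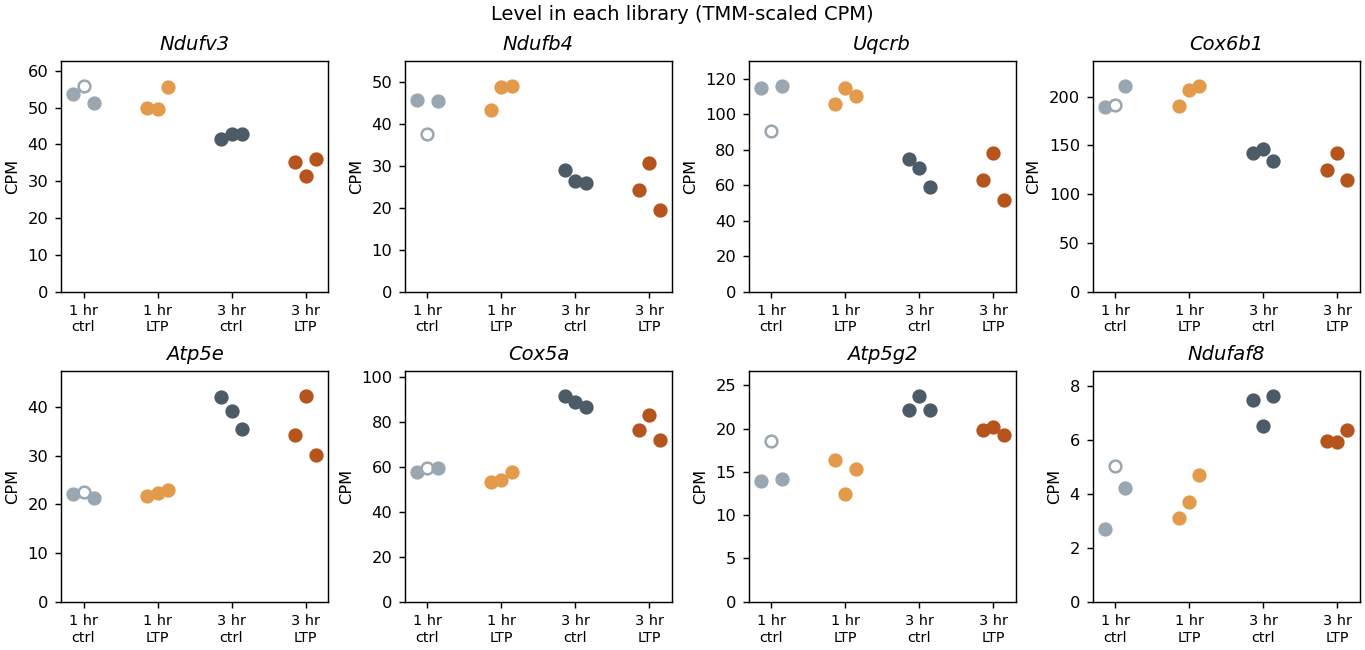
Level (TMM-scaled CPM, vertical axis from 0) of 8 members in each library, by group (horizontal axis; ctrl, control), replicates 1 to 3 from left to right, with the 1 hr control left out of the tests as an open point. Ndufv3 is lower in all 3 hr LTP than in all 3 hr control libraries, Ndufb4, Uqcrb and Cox6b1 are lower and Atp5e, Cox5a, Atp5g2 and Ndufaf8 higher at 3 hr than at 1 hr.

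Several measured properties moved with the time calls. GC content was related to the change across all genes, with a Spearman rho of 0.425 in controls and 0.403 in LTP slices, and across the 91 members the rho was 0.283 and 0.292, given as a description of genes that share the same libraries. With GC and length offsets the split was 23 higher and 19 lower in controls and 17 and 21 in LTP slices. Over all genes these offsets took the calls in controls from 2987 higher and 3115 lower to 2177 and 2502, and those in LTP slices from 3460 and 3216 to 2523 and 2529. With 1 hr control replicate 2, the library set aside, included, 16 members were higher and 18 lower, beside 2736 and 2255 of the 18240 genes then tested.

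Near-identical annotated copies elsewhere in the genome, defined by at least 97% identity over 150 bases of transcript, were found for 15 members. Of the 20 members that fell in both comparisons 8 had such a copy (Ndufa12, Ndufb4, Ndufs5, Uqcrb, Cox7a2l, Atp5f1, Atp5h and Atp5l), and of the 12 that rose in both 0 had one. This was looked at after the changes were known. How reads that fit several places were counted is not given in the sources used here, so values of these genes are uncertain, and the part of the copies in the time calls was not tested. Among the 76 tested members without a copy, 17 were higher and 13 lower in controls and 13 and 18 in LTP slices. Among all 91 members these counts were 17 and 21, then 14 and 27, so mostly lower calls were lost. Over all genes, those with copies included, 16.1% were higher and 16.8% lower in controls, and 18.6% and 17.3% in LTP slices.

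Marker levels also moved with time. All 6 microglia markers were detected, and 5 of them fell in both comparisons, with summed levels of 189 to 200.3 and 170.3 to 195.7 CPM in 1 hr control and LTP slices and 128.6 to 145.1 and 121.4 to 133.2 CPM at 3 hr. Of 6 oligodendrocyte markers 3 rose in both, and their summed level went from 5848 to 7349 CPM in 1 hr controls to 7857 to 9581 CPM in 3 hr controls. The sum in LTP slices was 7098 to 8379 CPM at 1 hr and 7780 to 9617 CPM at 3 hr. Of 8 pyramidal neuron markers 3 fell in controls, where their summed level was 7550 to 7961 CPM at 1 hr and 6846 to 6886 CPM at 3 hr, while 2 fell and 1 rose in LTP slices (6880 to 8004 and 6231 to 8186 CPM). Of 3 oligodendrocyte precursor markers 2 rose in controls and 1 in LTP slices, and of 5 interneuron markers 1 rose and 1 fell in controls and 2 fell in LTP slices. Of 6 astrocyte markers 1 fell in each comparison, and of 4 genes listed for dentate granule cells 1 fell in LTP slices. Of 6 endothelial and mural markers 4 fell in controls and 2 in LTP slices, where 1 rose. The part of these cell types in the members' changes was not tested.

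Genes that work with the complexes were described from lists of the pathway. None was called in the LTP comparisons or in their difference in the lists of electron carriers (9 tested), other assembly factors (39 tested), regulators of mitochondrial transcription and biogenesis (23 tested) or the tricarboxylic acid cycle (18 tested). At 3 hr the median log2 fold change of LTP was -0.13 for electron carriers, -0.07 for the assembly factors and -0.11 for the tricarboxylic acid cycle, with 8, 27 and 17 genes below 0. The regulators were on the other side, with a median of 0.04 and 9 of 23 below 0.

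Among the regulators, Ppargc1a, the coactivator PGC-1alpha that drives mitochondrial biogenesis, had 25.2, 25 and 24.6 CPM in 3 hr controls and 30.2, 25.6 and 35.9 CPM in 3 hr LTP slices. All LTP libraries were above the controls, one of them by little, and the log2 fold change of 0.31 ± 0.12 did not pass (edgeR adjusted p = 0.178). Tfam, the transcription factor of mitochondrial DNA, had 44, 41.1 and 37.9 CPM in 3 hr controls and 34.5, 36.2 and 30.3 CPM in LTP slices, with -0.26 ± 0.09 (edgeR adjusted p = 0.133). Nrf1 had 0.10 ± 0.08 and Gabpa -0.05 ± 0.06, and neither was called in any comparison, although Gabpa had adjusted p of 0.0197 and 0.00972 with time, at log2 fold changes of -0.24 that missed the fold minimum.

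With time 2 electron carriers were higher and 2 lower in controls, and 1 and 3 in LTP slices. The other assembly factors had 4 higher and 6 lower in controls and 5 and 7 in LTP slices, and the regulators 5 and 7, then 5 and 4. In the tricarboxylic acid cycle 0 were higher and 3 lower in controls (16.7%), and 0 and 4 in LTP slices (22.2%). Over all genes 16.1% were higher and 16.8% lower in controls, and 18.6% and 17.3% in LTP slices. The cytochromes of the chain moved apart: Cyc1, cytochrome c1 of complex III, rose from 47.7, 59.6 and 51.2 CPM to 83.4, 83.2 and 86 CPM in controls, by 0.73 ± 0.10 (edgeR adjusted p = 0.0002). Cycs, the mobile cytochrome c, fell from 121, 107 and 139 CPM to 89.1, 87.9 and 75.7 CPM, by 0.67 ± 0.09 (edgeR adjusted p = 0.0002). Both were called in the same direction in LTP slices, at 0.68 ± 0.09 and -0.69 ± 0.08. Of the complex IV assembly factors, Cox14 rose by 0.81 in controls and 0.58 in LTP slices and Pet100 and Cox20 fell, by 0.78 and 0.76 in controls and 0.81 and 0.86 in LTP slices. Lyrm7, which helps to insert the Rieske protein into complex III, fell by 0.86 and 0.56. Esrra, the estrogen-related receptor alpha that acts with PGC-1alpha, rose by 0.72 and 0.60, and Ppard rose by 0.51 and 0.99. Ppargc1a itself fell in controls (-0.48 ± 0.11) and was not called in LTP slices (-0.08 ± 0.10).

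Because forskolin raises cAMP, the promoters of members were searched for the full cAMP response element TGACGTCA, which reads the same on both strands. Promoter windows (250 bases before to 50 after the start, RefSeq, GRCm38.p6) were at hand for 76 members. The element was found in 4 of them (5.26%), and in 2.03% of the 27025 genes with a window. The sites are shown with 10 bases on each side, 5′ to 3′ on the strand of the gene, with the element in capitals, since their genes differed in what they did. The windows are Ndufa10 at chr1:92473808-92473835 (minus strand), Ndufa11 at chr17:56717594-56717621 (plus strand), Ndufb2 at chr6:39592541-39592568 (plus strand) and Uqcrfs1 at chr13:30545328-30545355 (minus strand).
Ndufa10: cactcagtggTGACGTCAtggcagcgcg
Ndufa11: ttacctttccTGACGTCAcgggcgtctc
Ndufb2: tgcgacgcagTGACGTCAcgggccggga
Uqcrfs1: ggcgtcgcgcTGACGTCAcaaaccctgc

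The elements began 67, 158, 14 and 29 bases before the RefSeq start in Ndufa10, Ndufa11, Ndufb2 and Uqcrfs1. GENCODE M21 starts Ndufa10 and Uqcrfs1 further upstream, so by that annotation their elements lie within an exon of the gene, and those of Ndufa11 and Ndufb2 lie before it. None of the 4 genes was called with LTP at 1 hr, where their log2 fold changes were -0.11, -0.15, 0.07 and -0.14, or at 3 hr, where they were -0.10, -0.17, -0.10 and -0.16. With time Ndufa10 fell in both comparisons, Ndufa11 and Uqcrfs1 rose in both and Ndufb2 was not called.

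Other motifs of mitochondrial genes were searched in the same windows on both strands. The NRF1 core GCGCATGC was present in 15.8% of members with a window and 3.05% of all genes, and the YY1 core AAGATGGC in 14.5% and 3.19%. The ETS core CCGGAAGT, bound by GABPA, was present in 6.58% and 4.31%, and the ERR element CAAGGTCA in 5.26% and 1.76%. Member windows had a median GC content of 58.3% and all windows 52.7%. An NRF1 core was present in Ndufa11, which rose with time, and in Ndufaf4, which fell. Its letters overlap their own reverse complement, so 1 site can match on both strands. Ndufaf4 held a further NRF1 core at chr4:24898074-24898101, not shown. For example, the NRF1 core of Ndufaf4 at chr4:24897960-24897987 (plus strand) and that of Ndufa11 at chr17:56717692-56717719 (plus strand) read as follows, with the core in capitals.
Ndufaf4: ccagatgtctGCGCATGCgcctgtgcgg
Ndufa11: cctgcactgcGCGCATGCgcgcacgcct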

How the data were processed

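Total RNA from slices was sequenced after ribosomal depletion with a stranded kit, and the authors aligned reads with STAR to mm10 and deposited raw counts per gene, 1 table per time point. Annotation release, strand setting and treatment of multi-mapping reads are not given in the sources used here. The members and lists were chosen with earlier results of these data known. Gene IDs were matched to GENCODE M21 (GRCm38) without version, which placed 40217 of 41091. Counts were filtered (filterByExpr), scaled by TMM and tested with edgeR 4.0.16 (quasi-likelihood F test, Benjamini-Hochberg over all genes tested, R 4.3.3), using 5 libraries at 1 hr, 6 at 3 hr and a model of 4 groups with 11 libraries for time and for the difference of effects. A gene was called at adjusted p under 0.1 and fold change over 1.2 (no fold minimum for the difference). The SE is the absolute log2 fold change divided by the root of F. Replicates within a time point are separate animals, and p-values measure the spread between them. Control and LTP slices were paired by animal per the labels, and correlations of their deviations from group means were -0.02, -0.16 and 0.07 at 1 hr and 0.04, -0.03 and 0.22 at 3 hr. Log2 ratios per animal used CPM + 0.1. Genes named were, per comparison, the 5 called members with the smallest p and the 5 with the largest fold change in each direction (groups not overlapping, mean at least 1 CPM), up to 5 called against the majority, the highest per kb in each complex, the isoform sets, and from the pathway lists the 3 smallest p in each direction with Ppargc1a, Nrf1, Gabpa, Tfam, Cycs and Cyc1. Other members were named after their values were seen. Alternatives were DESeq2 1.42.0, limma-voom (limma 3.58.1), other scalings and filters, the animal as a block, offsets for GC content and exon length, and each replicate left out. Alternatives on near-identical copies (BLAST+ 2.17.0) and on the library set aside were chosen after seeing the data. The test was also run on simulated counts, drawn with the same dispersion for every gene and without pairing by animal. That setting differs from these data, so it gives no check of the calls made here.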

Additional observations from a re-analysis of the deposited data

Results flagged for a closer look

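In 3 of the named members the animals tested at 1 hr and those at 3 hr had LTP effects of opposite sign. Only the named members were searched for this pattern, and its share over all genes was not computed. With so few animals the pattern can also arise by chance. The median log2 ratio per animal was lower at 3 hr than at 1 hr by a difference of -0.43 for Ndufaf8, -0.37 for Atp5g2 and -0.3 for Atp5g3. Ndufaf8 had log2 ratios of 0.20 and 0.15 in 1 hr animals 1 and 3 and of -0.33, -0.13 and -0.26 in the 3 hr animals. For Atp5g2 the 1 hr animals gave 0.22 and 0.11 and the 3 hr animals -0.16, -0.23 and -0.20. For Atp5g3 they gave 0.07 and 0.02, then -0.35, -0.25 and -0.17. The 1 hr animal whose control was set aside had -0.42, -0.57 and -0.30 for these genes, on the side of the 3 hr animals. The difference of effects did not pass edgeR's test for any of them, with adjusted p of 0.878 for Ndufaf8, 0.841 for Atp5g2 and 0.812 for Atp5g3.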

How the results depend on the processing

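The members' median LTP effect stayed below 0 in all 23 alternatives at 1 hr (-0.13 to -0.045) and all 17 at 3 hr (-0.199 to -0.109). The number of members called with LTP at 1 hr was 1 with GC and length offsets (Ndufs3). At 3 hr it was 2 with no filter beyond 1 count, 9 with GC and length offsets, 10 with these and a replicate block, 0 at adjusted p under 0.05 and 0 to 7 with a replicate left out, and the cause was not tested. With the replicate block alone it was 0 at 1 hr (median -0.05) and 1 at 3 hr (median -0.148), so the block alone changed no call count. Added to the offsets, it took the count at 1 hr from 1 to 0 and at 3 hr from 9 to 10. It was not used between times, since the labels pair slices only within a time. The median difference of effects was -0.134 to -0.006, lowest without 3 hr LTP replicate 2. The median change between controls was -0.088 to 0.02, and it was above 0 only without 1 hr control replicate 3. Members called numbered 30 to 42 between controls and 31 to 45 between LTP slices, the lowest when members with a copy were left out, so that fewer were tested. The split of calls was 21 higher and 16 lower in controls without 1 hr control replicate 3 (all genes 2357 and 1855). In LTP slices it was 21 and 24 without 1 hr LTP replicate 3 (all genes 3643 and 2688) and 9 and 34 without 3 hr LTP replicate 2 (all genes 3851 and 3649). No fold change of a described gene turned its sign across a call. Counts were lowest for the isoforms under 1 CPM, and the effect of depth was not tested.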
